A study of Mus musculus with 12 samples.

Results

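The accessible chromatin at 9 genes of the Hedgehog pathway was described across 6 lists of accessible domains from mouse embryonic stem cells that were differentiated towards motor neurons. The genes were chosen by name for their roles in the pathway and not by their accessibility, though with earlier results of these data known. The genes make up 9 of the 21938 protein-coding genes examined. They are Ptch1, Hhip, Smo, Boc, Cdon, Gas1, Gli1, Gli2 and Gli3. For each gene, every domain that overlapped its window was taken, and the window was the gene body with 50 kb added on both sides. The windows held 672 of 482514 domains over the 6 lists, and domains that touched across lists were merged into 287 of 218562 regions.

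ATAC-seq marks DNA that a transposase can reach, and the authors called runs of such DNA as domains. Embryoid bodies (EBs), which are free-floating aggregates of differentiating stem cells, had received no patterning signal. Progenitors were EBs given retinoic acid (RA, 1 µM) and SAG (0.5 µM), a small molecule that activates the Hedgehog pathway by binding Smoothened, for 2 days. EBs and progenitors came from the Ainv15(iCre) line. The other 4 groups were collected at day 4 of RA and SAG. The lines Ainv15(iFlag.Hoxc6), Ainv15(iFlag.Hoxc9) and Ainv15(iFlag.Hoxc10) carry a Flag-tagged Hox gene that doxycycline (Dox) switches on, and they received Dox at 3 µg/mL for the last 48 h (iHoxc6, iHoxc9 and iHoxc10). The no Dox control came from the Hoxc6 line without Dox. RA and SAG were added together and were shared by all groups other than EBs, so the effect of SAG and that of RA cannot be told apart. No day is given for EBs, so time in culture cannot be told apart from RA and SAG either. Stage and line also coincide between progenitors and no Dox, and between EBs and the day 4 lists.

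There were 2 samples in each group but a single list for the pair, so no value has a replicate error and no difference was tested against the spread between replicates. The lists give positions only, without height or read depth, and domains with a length of 2 bp or more were listed. List lengths ran from 56232 domains in iHoxc10 to 94875 in EBs, and the covered genome from 17.8 Mb in iHoxc9 to 29.7 Mb without Dox. Differences in covered length are therefore read against all genes. EBs are bulk mixtures, so a domain open in more cells and one open more widely in each cell cannot be told apart. Of 4 pluripotency genes (Pou5f1, Nanog, Zfp42, Esrrb), 4 had a promoter domain in EBs and 2 in progenitors. Neural progenitor and motor neuron markers had promoter domains in EBs too, so promoter presence of these genes did not separate the stages. Covered length was at least 1.5-fold higher from EBs to progenitors at 3 of 4 neural progenitor markers and from progenitors to no Dox at 3 of 4 motor neuron markers, against 13.6% of all genes in either comparison. Of markers of other cell types, 3 of 3 for mesoderm and 3 of 3 for endoderm had a promoter domain in EBs and progenitors, and of 2 glial genes 0 had one in EBs and 1 in progenitors, and their part in the results was not tested.

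Hedgehog ligands bind Patched, which otherwise holds Smoothened inactive, and active Smoothened at the primary cilium turns Gli transcription factors from repressors into activators. In the ventral neural tube a gradient of Sonic hedgehog patterns progenitors, motor neuron progenitors among them. Ptch1, Hhip and Gli1 are well-known transcriptional targets of the pathway, and Ptch1 and Hhip restrain it.

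All 9 genes had an accessible promoter, defined as a domain within 1 kb of a transcription start site (TSS), in all 6 lists. Over all protein-coding genes the share with a promoter domain was 69.1% for EBs, 66.5% for progenitors, 65.4% for no Dox, 65.7% for iHoxc6, 62.9% for iHoxc9 and 62.5% for iHoxc10. The pathway genes thus differed between lists in the length and the surroundings of their open promoters, and not in whether these were open. Of the RefSeq promoters matched for 7 of the genes, 6 were covered in all 6 lists and that of Cdon, at another start site in chr9:35451826-35452125, was covered over 0 bp in each. Summed over the 9 windows, domains covered 34317 bp in EBs, 54347 bp in progenitors, 58483 bp without Dox, 47236 bp in iHoxc6, 36632 bp in iHoxc9 and 40625 bp in iHoxc10. The lowest sum was that of EBs and the highest that of the no Dox control.

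**Figure D1:**
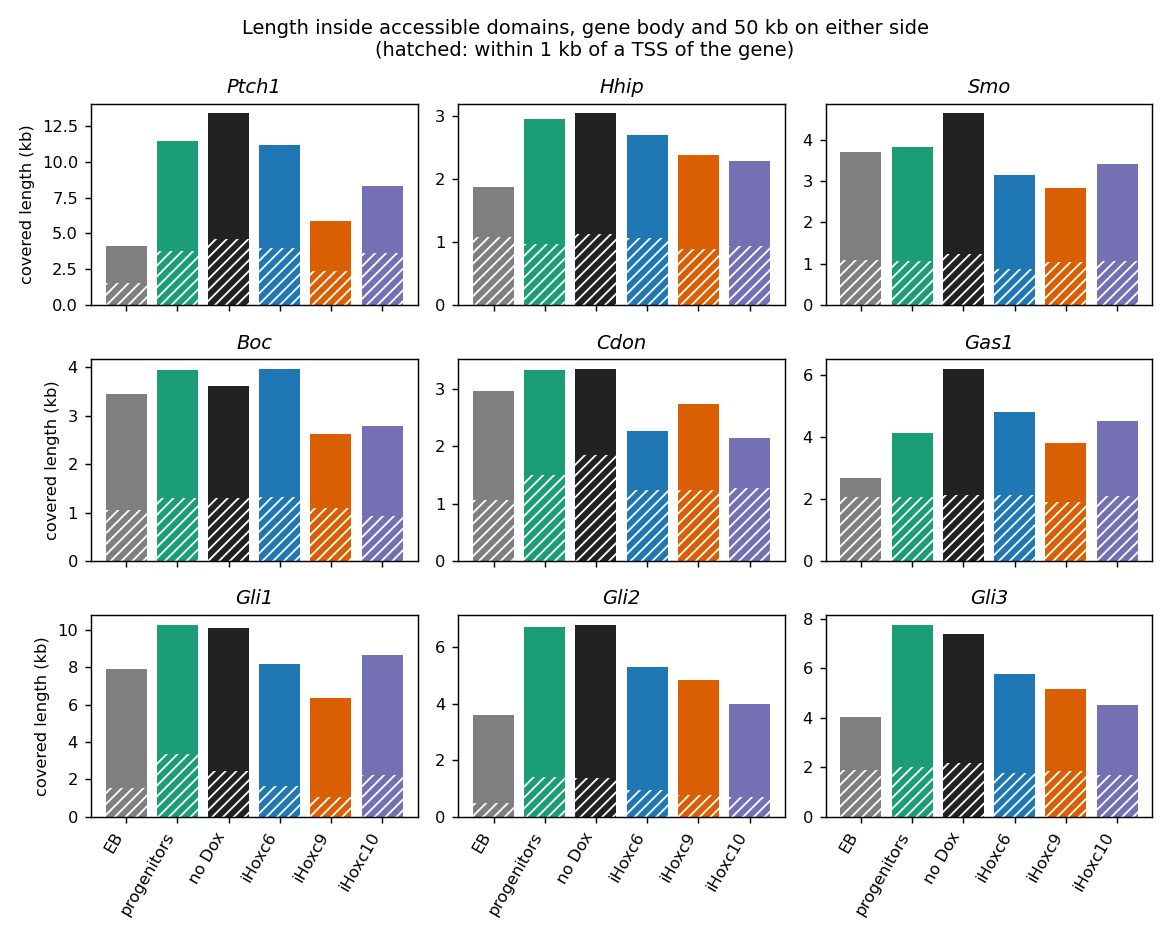
Length inside accessible domains (kb, vertical axes starting at 0 with their own scale per gene) for each of the 9 genes in the 6 lists, 1 bar per list and no error bars because each group has 1 list. Hatching marks the length within 1 kb of a TSS of the gene. Ptch1 ran from 4098 bp in EBs to 13376 bp without Dox, while Smo ran from 2844 bp in iHoxc9 to 4644 bp without Dox.

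The comparison of EBs with progenitors asks what differed at these genes once RA and SAG had been present, with time in culture not separable from them. Progenitor domains covered at least 1.5-fold more than EB domains at 5 of 9 genes, Ptch1, Gli3, Gli2, Hhip and Gas1, against 13.6% of all genes. None of the 9 genes was at least 1.5-fold lower, against 14.7% of all genes. The median log2 ratio was 0.62 for the 9 genes and 0.09 for genes covered in both lists. Without flanks 4 of 9 genes (Ptch1, Gli3, Gli2 and Hhip) were at least 1.5-fold higher, against 18.3% of all genes, and Gas1 had a ratio of 1.04. With each length taken as a share of its list's total, 3 of 9 genes (Ptch1, Gli2 and Gli3) remained at least 1.5-fold higher and 0 were lower, against 9.26% of all genes higher and 18.7% lower. The same EB list set against no Dox gave 5 of 9 genes higher (24.2% of all genes), the same 5 as in progenitors. Against EBs, 2 of 9 were higher in iHoxc6 (Ptch1 and Gas1, 12.7% of all genes), 0 in iHoxc9 (5.32%) and 2 in iHoxc10 (Ptch1 and Gas1, 6.71%). At least 1.5-fold lower than in EBs were 0 of 9 in each of no Dox, iHoxc6, iHoxc9 and iHoxc10, against 13.8%, 18.6%, 41.4% and 30.8% of all genes. These comparisons share the EB list and are no independent repeats.

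**Figure D2:**
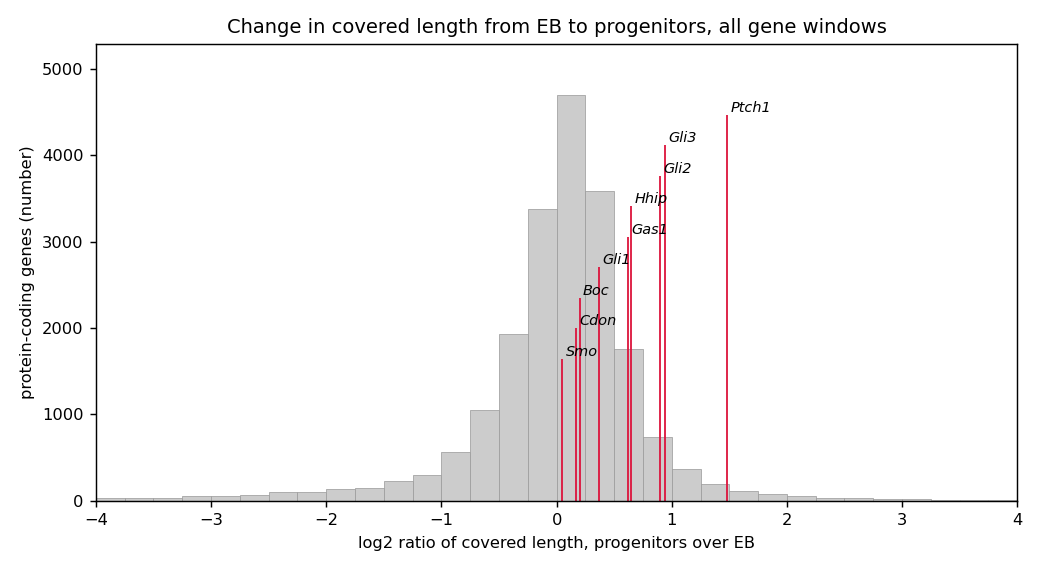
Number of protein-coding genes (vertical axis) by log2 ratio of covered length, progenitors over EBs (horizontal axis), for genes covered in both lists, within -4 to 4. Red lines mark the 9 pathway genes and their heights only separate the labels. Ptch1 lies farthest to the right at 1.48, and Smo lies at 0.05, near the all-gene median of 0.09.

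Summed over the 9 windows, the gain was made mostly of domains that were already present and were longer in progenitors. Regions held by both lists numbered 54 in the 9 windows, and their length went from 27643 bp in EBs to 43196 bp in progenitors, a ratio of 1.56 against 1.12 over the genome. Of these 54 regions 63.0% were wider in progenitors, against 55.0% over the genome. The sum leaned on Ptch1 (3262 to 9926 bp in shared regions) and Gli1 (6696 to 10134 bp), which was not called higher. At the other genes called higher, new regions added more than shared regions gained, before lost EB regions were taken off. Shared length went from 2685 to 2574 bp at Gas1 (1591 bp new, 0 bp lost). It went from 1384 to 1947 bp at Hhip (1011 bp new, 498 bp lost). At Gli2 it went from 1935 to 4176 bp (2535 bp new, 1651 bp lost) and at Gli3 from 3849 to 5509 bp (2249 bp new, 191 bp lost). With the lost length taken off, new regions added less than the shared gain at Hhip and Gli2, and more at Gas1 and Gli3. Regions absent from EBs numbered 71 of the 125 that progenitors held, or 56.8% (95% Wilson interval 48.0 to 65.2, for the counting of regions only) against 54.6% over the genome. Regions lost from EBs numbered 56 of 110, or 50.9% (41.7 to 60.1) against 57.8%. The genome share lay inside both intervals, and the wider departure from the genome was in the length of the shared regions.

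Ptch1 encodes the receptor Patched, a repressor of Smoothened and itself a Hedgehog target. The gene lies on the minus strand at chr13:63508328-63573598 (GRCm38, as all positions here) with 5 annotated TSS, and Fancc has a TSS in the same window. Domains covered 4098 bp of the window in EBs, 11435 bp in progenitors, 13376 bp without Dox, 11150 bp in iHoxc6, 5855 bp in iHoxc9 and 8289 bp in iHoxc10. EBs had the lowest value and no Dox the highest. The ratio of progenitors to EBs was 2.79, at percentile 98.0 of all genes covered in both lists, and 2.84 without the 3 regions at TSS of Fancc. Within 1 kb of its own TSS, Ptch1 was covered over 1563 bp in EBs, 3772 bp in progenitors, 4579 bp without Dox, 3982 bp in iHoxc6, 2390 bp in iHoxc9 and 3614 bp in iHoxc10.

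Most of this difference lay in 3 promoter regions that every list held. The widest, chr13:63564610-63569797, holds some of the inner TSS, and it was covered over 1437 bp in EBs, 4629 bp in progenitors, 4945 bp without Dox, 3424 bp in iHoxc6, 2831 bp in iHoxc9 and 3381 bp in iHoxc10. In EBs it was broken into 6 separate domains, and in progenitors into 2 domains of 3712 and 917 bp. At the 5′ end of the gene, chr13:63571691-63573999 was covered over 354 bp in EBs, 2205 bp in progenitors, 2272 bp without Dox, 2196 bp in iHoxc6, 506 bp in iHoxc9 and 1787 bp in iHoxc10. EBs and iHoxc9 were low there, and the other 4 lists were high. The third, chr13:63562264-63564376, was covered over 749 bp in EBs and 1729 bp in progenitors. Summed over the 7 regions shared by EBs and progenitors, Ptch1 went from 3262 to 9926 bp, a ratio of 3.04, and 12 new regions added 1509 bp.

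**Figure D3:**
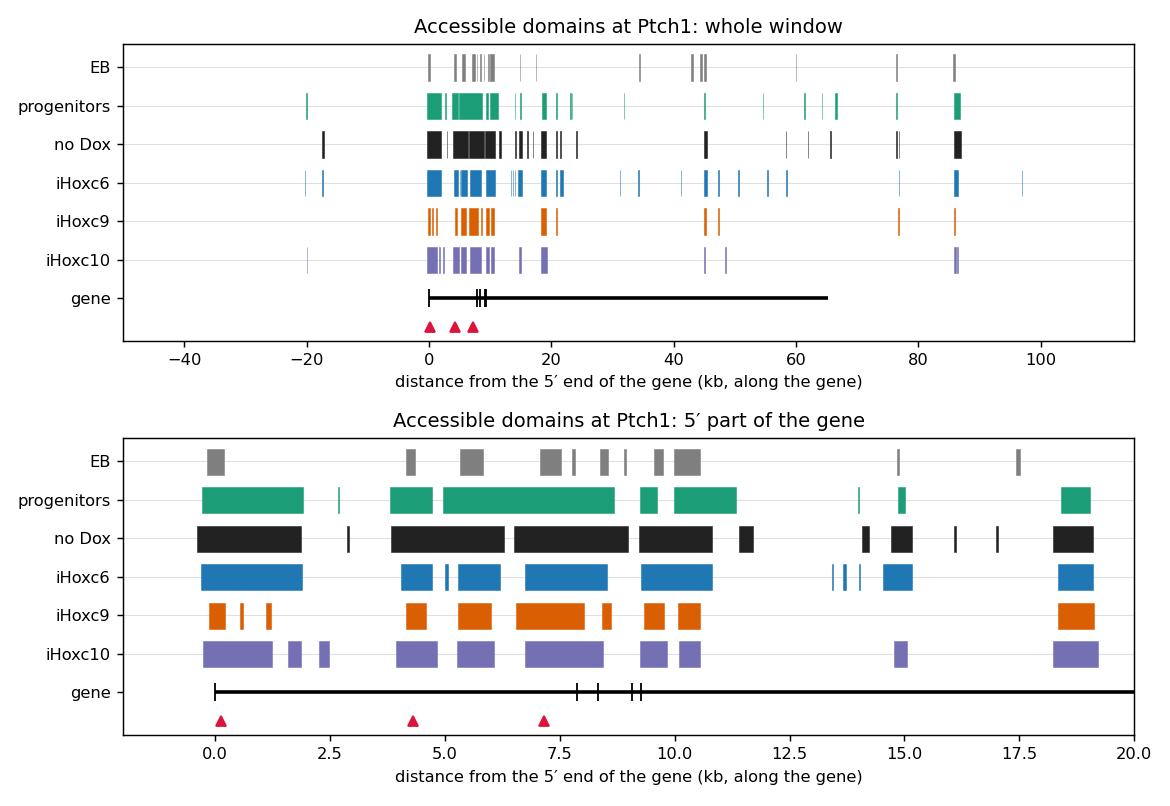
Accessible domains (boxes, 1 line per list) along Ptch1, by distance from the 5′ end in kb along the gene, over the whole window above and the 5′ part below. The black line is the gene, ticks are TSS and red triangles are matches to GACCACCCA; short separate EB domains sit where the progenitor and no Dox lists hold domains of up to several kb.

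Gli proteins bind sequences close to GACCACCCA, so this string was searched on both strands in all regions. It was found 6 times in 5 of the 287 regions of the 9 windows, or 1.74% (0.746 to 4.01), against 623 of 218562 regions over the genome, or 0.285%. Per length, this was 0.0668 matches per kb against 0.0123. Wider regions hold more matches. Among regions of 1000 bp or more, 2 of 21 held the string (9.52%) at the pathway genes and 172 of 10403 (1.65%) over the genome. Both of these wide regions were promoter regions of Ptch1, so this share rests on a single gene. Among RefSeq promoters of 300 bases on GRCm38.p6, 83 of 32851 (0.253%) held it. The shorter ACCACCC, which lies inside the longer string, was in 16 of 287 regions, 5.57% (3.46 to 8.86), against 3.46% over the genome and 4.61% of RefSeq promoters. By width its shares were mixed. They were 2.94% against 0.826% over the genome below 150 bp and 4.29% against 3.88% from 150 to 500 bp. From 500 to 1000 bp they were 3.85% against 10.0%, and at 1000 bp or more 33.3% against 23.4%. A match is a description of the letters and says nothing of whether a Gli protein was bound.

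Ptch1 held 3 of the 6 matches, and each lay inside a domain of all 6 lists. They are shown because the domains around them were the ones that differed in length. Sequences are read from the GRCm38 reference 5′ to 3′ along the gene's strand, and capitals mark the string or its reverse complement TGGGTGGTC.
Ptch1 chr13:63566379-63566498: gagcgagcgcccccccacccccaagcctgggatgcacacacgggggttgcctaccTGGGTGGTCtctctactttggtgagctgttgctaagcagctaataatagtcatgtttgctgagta
Ptch1 chr13:63569229-63569348: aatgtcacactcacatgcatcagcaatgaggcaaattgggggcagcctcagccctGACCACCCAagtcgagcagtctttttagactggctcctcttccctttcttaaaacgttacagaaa
Ptch1 chr13:63573455-63573483: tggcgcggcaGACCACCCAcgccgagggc

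The first match, chr13:63566435-63566443, lay at -704 bp from the nearest TSS (negative values are upstream). The domain that held it was 455 bp long in EBs, 3712 bp in progenitors, 2481 bp without Dox, 1784 bp in iHoxc6, 1473 bp in iHoxc9 and 1700 bp in iHoxc10. The second, chr13:63569285-63569293, lay at -3554 bp from the nearest TSS. Its domain was 198 bp long in EBs, 917 bp in progenitors, 2464 bp without Dox, 668 bp in iHoxc6, 432 bp in iHoxc9 and 876 bp in iHoxc10. The third, chr13:63573465-63573473, lay 129 bp inside the 5′ end of the gene, in the UTR. Its domain was 354 bp long in EBs, 2205 bp in progenitors, 2272 bp without Dox, 2196 bp in iHoxc6, 344 bp in iHoxc9 and 1513 bp in iHoxc10. At the first and second match EBs had the shortest domain of the 6 lists, and at the third iHoxc9 was as short as EBs.

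Away from the promoters, the widest Ptch1 region that was absent from EBs and held by progenitors and no Dox was in an intron 18.7 kb into the gene, chr13:63554383-63555374. It was covered over 638 bp in progenitors, 890 bp without Dox, 747 bp in iHoxc6, 769 bp in iHoxc9 and 977 bp in iHoxc10. It is a region that no EB domain touched and every later list held. Its central bases, which hold no match to GACCACCCA or ACCACCC, are shown as the Ptch1 example of such a region.
Ptch1 chr13:63554819-63554938: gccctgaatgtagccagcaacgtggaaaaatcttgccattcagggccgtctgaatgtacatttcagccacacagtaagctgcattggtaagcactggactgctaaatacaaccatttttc

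Hhip encodes a membrane protein that binds and sequesters Hedgehog ligands. The gene (minus strand, chr8:79965851-80058006) was covered over 1882 bp of its window in EBs, 2958 bp in progenitors, 3045 bp without Dox, 2699 bp in iHoxc6, 2388 bp in iHoxc9 and 2280 bp in iHoxc10. The ratio of progenitors to EBs was 1.57. The promoter was no longer than in EBs, with 1081 bp covered in EBs and 964 bp in progenitors. The gain lay instead in intron regions close to the promoter. At chr8:80055273-80056525, 54 bp were covered in EBs, 974 bp in progenitors, 868 bp without Dox, 792 bp in iHoxc6, 433 bp in iHoxc9 and 538 bp in iHoxc10. At chr8:80054060-80054797, 3.6 kb into the gene, EBs held nothing, and 368 bp were covered in progenitors, 738 bp without Dox, 309 bp in iHoxc6, 313 bp in iHoxc9 and 419 bp in iHoxc10. Both were thus longer in every later list than in EBs. The central bases of the second, without a match to either string, are shown as the widest Hhip region absent from EBs.
Hhip chr8:80054369-80054488: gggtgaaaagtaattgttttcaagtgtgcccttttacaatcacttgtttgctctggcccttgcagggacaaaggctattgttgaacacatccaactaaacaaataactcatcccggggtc

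Smo encodes Smoothened, the transducer on which SAG acts. The gene (plus strand, chr6:29735503-29761365) was covered over 3698 bp of its window in EBs, 3821 bp in progenitors, 4644 bp without Dox, 3142 bp in iHoxc6, 2844 bp in iHoxc9 and 3421 bp in iHoxc10. The ratio of progenitors to EBs was 1.03, and without the 3 regions at TSS of the neighbours Ahcyl2 and Tspan33 it was 0.882. The promoter region chr6:29735297-29736547 was covered over 1093 bp in EBs, 1079 bp in progenitors, 1245 bp without Dox, 873 bp in iHoxc6, 1042 bp in iHoxc9 and 1068 bp in iHoxc10. Smo had the smallest EB to progenitor ratio of the 9 genes. Its widest region absent from EBs and held by progenitors and no Dox was a distal one of 221 bp at -27.4 kb, chr6:29708029-29708249, covered over 168 bp in progenitors, 164 bp without Dox, 213 bp in iHoxc6, 41 bp in iHoxc9 and 210 bp in iHoxc10.

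Boc, Cdon and Gas1 encode cell surface co-receptors that help Patched to bind ligand. Boc (minus strand, chr16:44485049-44558897) was covered over 3444 bp in EBs, 3947 bp in progenitors, 3620 bp without Dox, 3965 bp in iHoxc6, 2631 bp in iHoxc9 and 2781 bp in iHoxc10. Cdon (plus strand, chr9:35421128-35507652) was covered over 2961 bp in EBs, 3335 bp in progenitors, 3353 bp without Dox, 2263 bp in iHoxc6, 2740 bp in iHoxc9 and 2141 bp in iHoxc10. The progenitor to EB ratios were 1.15 for Boc and 1.13 for Cdon, close to the all-gene median of 1.07. Without flanks they were 1.36 and 1.46, with an all-gene median log2 ratio of 0.18. With domains of at least 150 bp they were 1.07 and 0.948, with an all-gene median log2 ratio of 0.16. An intron region of Boc, chr16:44530307-44531774, was longer in every later list than in EBs, with 614 bp in EBs, 1408 bp in progenitors, 1286 bp without Dox, 1367 bp in iHoxc6, 1122 bp in iHoxc9 and 1117 bp in iHoxc10. In Cdon, the intron region chr9:35443429-35444013 was covered over 585 bp in progenitors, 314 bp without Dox and 199 bp in iHoxc6, and was held by none of EBs, iHoxc9 and iHoxc10.

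Gas1 differed from the other co-receptors in that its promoter was already wide in EBs and its gain lay downstream. The gene (minus strand, chr13:60174405-60177365) was covered over 2685 bp of its window in EBs, 4113 bp in progenitors, 6184 bp without Dox, 4810 bp in iHoxc6, 3809 bp in iHoxc9 and 4512 bp in iHoxc10. The lengths within 1 kb of its TSS lay between 1905 bp, in iHoxc9, and 2134 bp, in iHoxc6. EBs held 2 domains in the window, 1 at the promoter and 1 centred at -1.3 kb, and the other lists held 6 to 11. The ratio of progenitors to EBs was 1.53, with 1.37 as a share of the list total and 1.04 without flanks. Gas1 was also the single gene of the 9 at least 1.5-fold higher without Dox than in progenitors (a log2 ratio of 0.59, against 13.6% of all genes called), and this call was lost with shares of the list total, without flanks, and with domains of at least 150 bp.

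Downstream of Gas1, chr13:60146933-60148073 lay 29.9 kb from the 5′ end and was absent from EBs. It was covered over 840 bp in progenitors, 933 bp without Dox, 341 bp in iHoxc6, 293 bp in iHoxc9 and 550 bp in iHoxc10. A nearer region at 6.1 kb, chr13:60170909-60171526, was likewise absent from EBs and covered over 617 bp in progenitors, 534 bp without Dox, 519 bp in iHoxc6, 186 bp in iHoxc9 and 441 bp in iHoxc10. Another at 43.4 kb, chr13:60133652-60134300, belonged to day 4 alone, with 206 bp without Dox, 535 bp in iHoxc6, 624 bp in iHoxc9 and 340 bp in iHoxc10. The last 2 regions were chosen after their values were seen. The widest one, chr13:60146933-60148073, holds 1 match to ACCACCC. Its central bases, which hold no match to either string, read as follows.
Gas1 chr13:60147443-60147562: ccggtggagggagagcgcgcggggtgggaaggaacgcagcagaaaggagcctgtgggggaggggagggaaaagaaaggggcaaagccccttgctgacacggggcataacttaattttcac

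Gli1 encodes an activator that is itself switched on by the pathway. The gene (minus strand, chr10:127329882-127341974) is short and its window held the TSS of 7 other genes, among them Ddit3, Mbd6, Mars and R3hdm2. Domains covered 7923 bp in EBs, 10269 bp in progenitors, 10090 bp without Dox, 8168 bp in iHoxc6, 6371 bp in iHoxc9 and 8681 bp in iHoxc10. Without the 8 regions at TSS of other genes, the lengths were 3155, 3996, 3403, 2814, 1490 and 2921 bp in the same order. The ratio of progenitors to EBs was 1.30 in full and 1.27 without those regions. Around its own TSS the ratio was 2.21, from 1514 bp in EBs to 3351 bp in progenitors, with 2438 bp without Dox, 1664 bp in iHoxc6, 1046 bp in iHoxc9 and 2259 bp in iHoxc10. The promoter region chr10:127338753-127342703 was split into 5 domains in EBs and was 2 domains, of 3320 and 223 bp, in progenitors. It was split again in the day 4 lists, with 5 domains for no Dox, 5 for iHoxc6, 4 for iHoxc9 and 3 for iHoxc10, so the long domain was seen in progenitors alone. All 6 regions of the Gli1 window shared between EBs and progenitors were wider in progenitors, but most lay at TSS of other genes (Ddit3, Mbd6, Mars, Arhgap9 and R3hdm2). The rest were the Gli1 promoter region (1704 bp in EBs, 3543 bp in progenitors) and an upstream region, chr10:127350503-127350996 (197 and 318 bp). The promoter region holds no GACCACCCA but holds the shorter ACCACCC, shown in capitals at 1.3 kb into the gene.
Gli1 chr10:127340649-127340768: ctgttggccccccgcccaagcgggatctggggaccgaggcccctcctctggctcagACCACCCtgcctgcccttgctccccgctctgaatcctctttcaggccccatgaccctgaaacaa

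Gli2 and Gli3 encode the Gli proteins that receive the signal, Gli2 mainly as an activator and Gli3 mainly as a repressor. Both are long genes with many intron regions. Gli2 (minus strand, chr1:118834132-119053619) was covered over 3586 bp in EBs, 6711 bp in progenitors, 6784 bp without Dox, 5279 bp in iHoxc6, 4821 bp in iHoxc9 and 3995 bp in iHoxc10. Gli3 (plus strand, chr13:15463235-15730026) was covered over 4040 bp in EBs, 7758 bp in progenitors, 7387 bp without Dox, 5760 bp in iHoxc6, 5173 bp in iHoxc9 and 4525 bp in iHoxc10. EBs were lowest for both, and progenitors and no Dox were highest. The progenitor to EB ratios of 1.87 for Gli2 and 1.92 for Gli3 lay at percentiles 94.2 and 94.7 of all genes covered in both lists. Within 1 kb of the TSS the genes differed, with a ratio of 2.77 for Gli2 (502 bp in EBs, 1389 bp in progenitors) and 1.08 for Gli3 (1873 and 2030 bp).

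New regions made up 37.8% of the progenitor length at Gli2 (14 regions, 2535 bp) and 29.0% at Gli3 (10 regions, 2249 bp), against 26.8% over the genome. The widest new region of Gli2 lay in an intron 19.7 kb into the gene, chr1:119033453-119034365, and was covered over 760 bp in progenitors, 725 bp without Dox, 663 bp in iHoxc6, 359 bp in iHoxc9 and 887 bp in iHoxc10. The widest of Gli3 lay in an intron 81.1 kb into the gene, chr13:15543693-15544946, with 1158 bp in progenitors, 1045 bp without Dox, 711 bp in iHoxc6, 680 bp in iHoxc9 and 790 bp in iHoxc10. Both were absent from EBs and held by all 5 later lists. A neighbour of the latter, chr13:15541911-15542851, named after its values were seen, was likewise absent from EBs, with 600 bp in progenitors and 900 bp without Dox. The centres of the widest new regions, neither of which holds a match to GACCACCCA or ACCACCC, read as follows.
Gli2 chr1:119033849-119033968: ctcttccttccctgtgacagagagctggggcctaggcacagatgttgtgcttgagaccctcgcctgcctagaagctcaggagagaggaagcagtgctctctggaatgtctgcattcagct
Gli3 chr13:15544260-15544379: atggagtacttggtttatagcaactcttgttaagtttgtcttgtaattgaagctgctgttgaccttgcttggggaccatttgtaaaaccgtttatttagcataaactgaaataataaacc

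**Figure D4:**
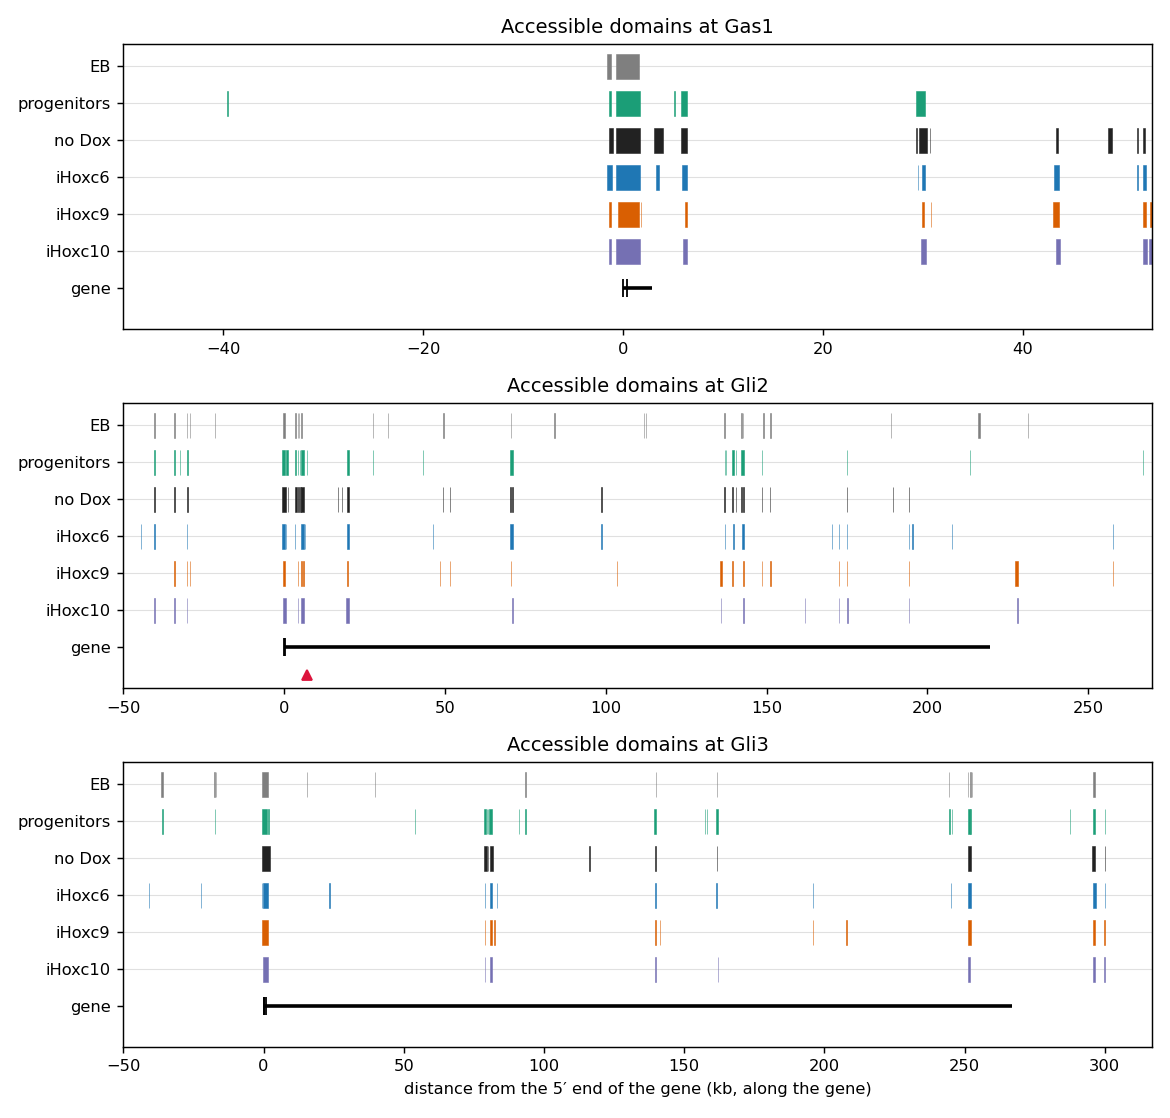
Accessible domains (boxes, 1 line per list) along Gas1, Gli2 and Gli3, by distance from the 5′ end in kb along the gene. The black line is the gene, ticks are TSS and the red triangle is a match to GACCACCCA; EBs hold no domain around 29.9 kb at Gas1, 19.7 kb at Gli2 and 81.1 kb at Gli3, where all other lists do.

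The remaining 3 matches to GACCACCCA each lay inside a domain of a single list. The Smo match, chr6:29719073-29719081, was in an EB domain of 381 bp upstream of the gene, and the Boc match, chr16:44552156-44552164, was in an EB intron domain of 541 bp. The Gli2 match, chr1:119046546-119046554, was in a progenitor intron domain of 62 bp. At the Smo and Boc matches no later list held a domain. The 3 are shown with the string in capitals for comparison with Ptch1.
Smo chr6:29719017-29719136: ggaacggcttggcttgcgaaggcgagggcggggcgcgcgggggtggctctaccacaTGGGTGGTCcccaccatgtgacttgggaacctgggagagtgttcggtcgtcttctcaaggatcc
Boc chr16:44552100-44552219: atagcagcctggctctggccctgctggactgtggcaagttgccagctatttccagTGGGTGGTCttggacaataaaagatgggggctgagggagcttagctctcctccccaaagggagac
Gli2 chr1:119046535-119046596: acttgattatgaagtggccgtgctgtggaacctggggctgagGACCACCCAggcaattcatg

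Regions that EBs alone held were short at most of the 9 genes. The widest were a coding exon region of Gli2, chr1:118837328-118837945, covered over 618 bp, a coding exon region of Gli1, chr10:127332032-127332600, covered over 569 bp, and the Boc intron region chr16:44552027-44552567 of 541 bp described above. Ptch1 had one of 427 bp, Cdon one of 318 bp and Hhip one of 247 bp. In Smo and Gli3 the widest were 52 and 62 bp, and Gas1 had none.

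Presence across lists at the 9 genes was set against that over the genome. Of the 287 regions 178 were held by 1 list, 62.0% against 63.7% over the genome, and 31 by all 6 lists, 10.8% (7.71 to 14.9) against 11.2%. Regions in 1 list had a median width of 42 bp and those in all 6 lists of 1253 bp. EBs alone held 52 (18.1% against 21.1%) and progenitors alone 43 (15.0% against 12.0%). Regions absent from EBs and held by every other list numbered 12, or 4.18% (2.41 to 7.16) against 2.77% over the genome. These 12 lay at Gas1 and Gli3 (3 each), Gli2 (2), and Ptch1, Hhip, Smo and Gli1 (1 each), and Boc and Cdon had none. Regions held by EBs, progenitors and no Dox and absent from iHoxc6 numbered 6, or 2.09% (0.962 to 4.49) against 0.928% over the genome. The genome share lay just below this interval, which is for 1 class among many. Those absent from iHoxc9 numbered 9, or 3.14% (1.66 to 5.85) against 2.24%. Those absent from iHoxc10 numbered 9, or 3.14% (1.66 to 5.85) against 2.50%. By position, 136 of the 287 regions lay in introns and 7 of those were in all 6 lists, while 16 lay at the genes' own promoters and 12 of those were in all 6 lists.

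**Figure D5:**
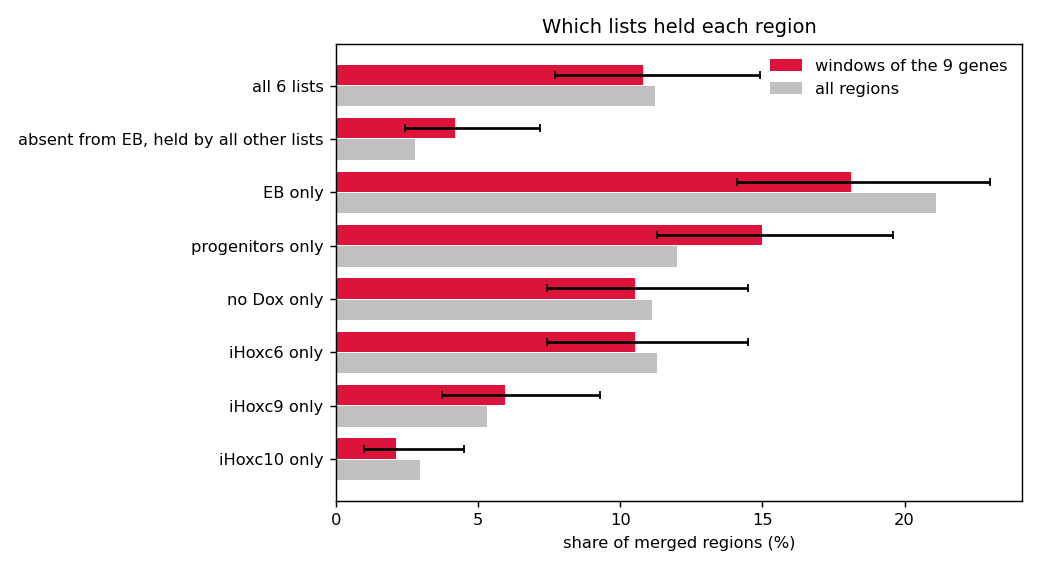
Share of merged regions (%, horizontal axis from 0) held by the named lists, in the windows of the 9 genes (red, 287 regions) and over the genome (grey, 218562 regions). Black lines are 95% Wilson intervals for the counting of regions; the genome share lies inside the interval in every class shown.

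From progenitors to no Dox, which follows the later 2 days of RA and SAG, the 9 genes differed little in length. The median log2 ratio was 0.02 for the 9 genes and 0.17 for all genes. Gas1 was higher as given above and 0 of 9 genes were at least 1.5-fold lower, against 7.38% of all genes. Ptch1 had a ratio of 1.17, Smo of 1.22, Gli1 of 0.983, Gli2 of 1.01 and Gli3 of 0.952. No Dox regions that progenitors lacked numbered 51 of 120, 42.5% (34.0 to 51.4) against 44.0% over the genome, and progenitor regions lost without Dox numbered 56 of 125, 44.8% (36.4 to 53.5) against 42.9%.

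The comparison of each induced line with no Dox asks whether accessibility at the pathway genes differed once a Hox gene was induced. No group received Dox without a Hox gene, so Dox exposure and Hox induction cannot be told apart. All 3 comparisons share the no Dox list, which covered the most genome. In iHoxc6, 0 of 9 genes were at least 1.5-fold higher (5.26% of all genes) and 0 were lower (15.1%). The median log2 ratio was -0.36 against -0.28 for all genes. The lowest ratios were 0.675 for Cdon and 0.677 for Smo, both just short of a 1.5-fold difference, and the highest was 1.10 for Boc. New regions numbered 38 of 110, 34.5% (26.3 to 43.8) against 39.6% over the genome, and lost regions 48 of 120 (interval 31.7 to 48.9%) against 39.2%. Without flanks 3 of 9 genes (Smo, Cdon and Gli1) were lower in iHoxc6, against 17.5% of all genes, so the count of 0 rests on the window.

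In iHoxc9, 4 of 9 genes were at least 1.5-fold lower than without Dox, namely Ptch1, Smo, Gas1 and Gli1, against 59.8% of all genes, and 0 were higher (3.09%). The median ratio was 0.700 for the 9 genes and 0.601 for all genes, so the reduction at the pathway genes was smaller in the median than over all genes. The iHoxc9 list covered 0.597 of the no Dox total. As shares of the list totals 0 of 9 genes were lower (13.0% of all genes, with 9.70% higher). Without flanks 7 were, against 42.1% of all genes, and the median log2 ratio was then -0.65 for the 9 genes and -0.64 for all genes. Ptch1 was the most reduced of the 9 with a ratio of 0.438, at percentile 16.1 of all genes, and with 0.733 as a share of the list total. Its 7 regions shared by both lists had a ratio of 0.487, against 0.661 over the genome, and the 5′ region chr13:63571691-63573999 was 2272 bp without Dox and 506 bp in iHoxc9. The promoter length of Gli1 had a ratio of 0.429, with 2438 bp without Dox and 1046 bp in iHoxc9.

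In iHoxc10, 4 of 9 genes were at least 1.5-fold lower, namely Ptch1, Cdon, Gli2 and Gli3, against 41.0% of all genes, and 0 were higher (1.87%). The median ratio was 0.730 for the 9 genes and 0.698 for all genes, and the iHoxc10 list covered 0.676 of the no Dox total. As shares of the list totals 0 of 9 were lower (11.4% of all genes, with 5.62% higher). Without flanks 5 of 9 were lower (Smo, Boc, Cdon, Gli2 and Gli3), against 31.6% of all genes. The median log2 ratio without flanks was -0.59 for the 9 genes and -0.46 for all genes. Ptch1 and Gli1 were less reduced than in iHoxc9, with ratios of 0.620 and 0.860, and their promoter lengths had ratios of 0.789 and 0.927. Gli2 and Gli3 had ratios of 0.589 and 0.613 in iHoxc10 and of 0.711 and 0.700 in iHoxc9. The differences between induced lines were not tested.

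Regions new in iHoxc9 and iHoxc10 made up smaller shares at the 9 genes than over the genome, with the genome share inside the interval. They numbered 24 of 83 in iHoxc9, 28.9% (20.3 to 39.4) against 30.3%, and 10 of 68 in iHoxc10, 14.7% (8.19 to 25.0) against 22.0%. Lost regions numbered 61 of 120 in iHoxc9 (50.8% against 52.3%) and 62 of 120 in iHoxc10 (51.7% against 51.8%). The widest region held by an induced list and by none of EBs, progenitors and no Dox was downstream of Gli2, chr1:118825502-118826250, covered over 749 bp in iHoxc9 and 324 bp in iHoxc10. Hhip had one of 365 bp in iHoxc9, chr8:79929456-79929820, Ptch1 one of 164 bp in iHoxc6 and 245 bp in iHoxc9, chr13:63526178-63526422, and Cdon one of 238 bp in iHoxc9, chr9:35466037-35466274. At Gli3 the widest was 169 bp (iHoxc9), at Gli1 160 bp (iHoxc10), and those at Boc, Smo and Gas1 were 62 bp or less. Of the 287 regions 58 were of this kind, 20.2% against 21.3% over the genome.

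The other genes of the pathway gave 36 further windows, listed by role. From EBs to progenitors 8 of 36 were at least 1.5-fold higher and 2 were lower, with a median log2 ratio of 0.09, equal to that of all genes. Over all genes 13.6% were higher and 14.7% lower. Among the ventral neural tube targets, transcription factors that Sonic hedgehog switches on or keeps on in ventral progenitors, 4 of 7 were higher. These were Olig2 with a ratio of 2.76, Olig1 with 2.57, Nkx2-9 with 2.14 and Nkx6-2 with 1.99. The windows of the neighbours Olig1 and Olig2 overlap, and Olig2 and Nkx6-1 were also among the neural progenitor markers above. Foxa2 had a ratio of 1.16, Nkx2-2 of 1.06 and Nkx6-1 of 0.879. At the Olig2 promoter, 232 bp were covered in EBs, 978 bp in progenitors, 1366 bp without Dox, 1082 bp in iHoxc6, 541 bp in iHoxc9 and 901 bp in iHoxc10. Of 9 genes of the primary cilium 0 were higher or lower, and of 7 genes of the signal relay only Stk36 was higher (1.86). Among 3 on the receptor side Gpc3 was higher (2.55), and among 4 general targets Ccnd2 was (1.86).

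Among 6 genes of ligands and their release, Disp1 was higher in progenitors (1.74) and Ihh (0.425) and Hhat (0.542) were lower. Shh, the ligand itself, had no promoter domain in EBs, iHoxc9 and iHoxc10, while 36 bp were covered in progenitors, 342 bp without Dox and 84 bp in iHoxc6. All 6 of these genes had a promoter domain in the no Dox and iHoxc6 lists, but 2 of 6 had one in iHoxc9 and 3 of 6 in iHoxc10, where the shares over all genes were 65.4% for no Dox, 62.9% for iHoxc9 and 62.5% for iHoxc10. Some presences were short, with 50 bp covered at Dhh without Dox and 42 bp in iHoxc6, and others long, with 875 bp at Ihh without Dox. Domains under 50 bp made up 28.4% of the no Dox list, 36.5% of iHoxc6, 30.2% of iHoxc9 and 15.7% of iHoxc10. Against no Dox, 29 of the 36 other genes were lower in iHoxc9 and 24 in iHoxc10, with 0 higher in either, and 9 were lower in iHoxc6. The shares of all genes lower were 59.8% for iHoxc9, 41.0% for iHoxc10 and 15.1% for iHoxc6. The median log2 ratio in iHoxc9 was -1.06 for these 36 genes, -0.73 for all genes and -0.51 for the 9 described first, all of which share the no Dox list.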

How the data were processed

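Per the study's methods, the authors mapped paired-end ATAC-seq reads to mm10 (GRCm38) with Bowtie2 (2.2.2) and called accessible domains with DomainFinder; the submitters' processing notes also name Picard (2.8.2). The 6 deposited lists, each made by the authors from 2 samples, hold chromosome, start and end in bp, with no score or count, so read depth is unknown. The no Dox list differs in form, with 3 additional constant columns, and its name gives a day that is not that of the label, which was followed. Its name also carries a p threshold, which the names of the other lists do not, so it may have been called differently. The settings are not given in the sources used here. Starts were read as 0-based and printed 1-based, and since their base was not stated, positions are uncertain by 1 bp.

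Genes and TSS came from GENCODE M21 on GRCm38. A promoter was TSS ± 1 kb and a window the gene body ± 50 kb. Domains overlapping by at least 1 bp across lists were merged into regions, and a region crossing a window edge was counted whole. Covered length was compared as a ratio, called at 1.5-fold, beside the same over 21938 protein-coding genes. Medians and percentiles use genes covered in both lists. Shares have 95% Wilson intervals for counting only. RefSeq promoters were matched for 7 of 9 genes. Python 3.11.15, NumPy 2.4.6, SciPy 1.17.1 and Matplotlib 3.10.9 were used, and the code was tested on simulated data (165 checks, 0 wrong).

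The members and lists of genes were chosen with earlier results of these data known. Regions were named by rule: promoter regions, the widest region absent from EBs and held by progenitors and no Dox, the widest held by EBs alone or only by an induced list, and those with the Gli string. Other regions named are said to have been chosen after their values were seen, and the Hhip and Boc intron regions shared by all lists are of that kind. Alternatives were domains of at least 150 bp, lists of equal length (56232 domains), overlap of 50% of a region, no flanks, other promoter definitions and shares of the list total.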

Additional observations from a re-analysis of the deposited data

Results flagged for a closer look

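Boc went opposite ways in the induced lines. The ratio of its covered length to that of no Dox was 1.10 for iHoxc6, 0.727 for iHoxc9 and 0.768 for iHoxc10, so it was longer in iHoxc6 and shorter in the other induced lines. As shares of the list totals the ratios were 1.32, 1.22 and 1.14 in the same order, all above 1. With 1 list per group the difference was not tested.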

How the results depend on the processing

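No paired analysis was possible because each group has 1 list made from both samples, and for the same reason no sample could be left out. Of the recomputed values 73 stayed within their interval or within 1.5 times the count and 34 moved, and the calls of an accessible promoter at all 9 genes were the same with TSS ± 500 bp and with the 5′ end of the gene alone. Leaving out regions at promoters of other genes, an alternative chosen after seeing the data for the counts of genes, moved none of 13 values.

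With domains of at least 150 bp, regions new in progenitors made up 47.3%, regions new without Dox 33.3%, progenitor regions lost without Dox 20.0%, regions new in iHoxc6 15.3%, and lost no Dox regions 24.2% (iHoxc6), 39.4% (iHoxc9) and 36.4% (iHoxc10). The genes higher without Dox than in progenitors then numbered 0 and those lower in iHoxc6 numbered 2. With lists of equal length, EB regions lost in progenitors made up 39.7%, regions new without Dox 32.5%, progenitor regions lost without Dox 31.6%, regions new in iHoxc6 22.1%, and lost no Dox regions 25.0% (iHoxc6), 32.5% (iHoxc9) and 33.8% (iHoxc10), with 1 gene lower in iHoxc6. When 50% of a region had to be covered, new regions made up 78.5% for progenitors, 54.8% for no Dox, 51.7% for iHoxc6, 51.8% for iHoxc9 and 31.4% for iHoxc10. Lost regions then made up 72.9% from EBs to progenitors, 60.7% from progenitors to no Dox, and 54.8%, 71.0% and 62.4% from no Dox to iHoxc6, iHoxc9 and iHoxc10. Without flanks, 0 genes were higher without Dox than in progenitors, 3 were lower in iHoxc6 and 7 in iHoxc9. As shares of the list total, 3 genes were higher in progenitors than in EBs, 0 higher without Dox than in progenitors, and 0 lower in iHoxc9 and in iHoxc10. The cause of these moves was not tested.

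The lists hold no height, depth or replicate value, so small differences in length cannot be told from differences in calling. Time in culture cannot be told apart from RA and SAG between EBs and progenitors. Cell line cannot be told apart from stage between EBs or progenitors and the day 4 lists. Nor can it be told apart from Hox induction in iHoxc9 and iHoxc10, while iHoxc6 and no Dox share a line. Dox exposure cannot be told apart from Hox induction in any induced list. The no Dox list differs in form, and calling cannot be told apart from the comparison in any contrast with it.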
